A study of Homo sapiens with 4 samples.

Results

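The genes described here are 41 genes of focal adhesions and the actin cytoskeleton, chosen by name. A probe set, the group of short probes that reads a transcript on the array, counted as a member when one of these genes was its only gene in the platform annotation. This gave 123 of 54613 probe sets, which read 38 of the 41 genes. FLNA, FLNC and TPM3 had no such probe set and are not analysed here. The samples were 4 cultures of the human glioblastoma line LN-229, an established cell line, each measured on 1 array. The 2 control cultures had no treatment, and the 2 induced cultures were given doxycycline for 48 h to express WIF1, which is secreted and captures WNT ligands outside the cell. No array came from cells given doxycycline but no WIF1, so the drug and the protein cannot be told apart. The labels call the replicates biological, do not say whether the inducible cells are 1 clone, and do not say whether the controls carry the inducible construct.

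Focal adhesions are the sites where integrins in the cell membrane grip the matrix outside the cell and, through talin, vinculin, alpha-actinin and other linkers, hold actin filaments inside it. Myosin pulls on these filaments, while formins, Ena/VASP proteins, profilin and cofilin build and dissolve them. The number of free actin monomers also sets how active the transcription factor SRF is, and many of the genes of this system are known SRF targets. In glioblastoma cells the system drives spreading and invasion.

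Without an effect that passed the test across all probe sets, the 38 genes leaned upwards in the induced arrays by small amounts. The 5 largest positive differences were those of ENAH, TLN1, CNN3, CALD1 and TPM1, at 1.12-fold to 1.23-fold, and MYH10 was lower, at 0.885 times its control level. These are values of 1 probe set per gene. Of these genes only CNN3 and MYH10 had all their probe sets in the same direction, and in CALD1 7 of 11 were lower. Each gene was read by the brightest of its probe sets, that with the highest mean over the 4 arrays, and differences are induced minus control in log2 units, with 2 arrays in each group. By sign 27 genes were higher and 11 lower, with a median difference of 0.045, against a median of -0.0030 over all 19775 genes. At an unadjusted p under 0.05 (limma, 2-sided), 9 of the 38 genes were higher, where 6.48% of all genes were, and 1 was lower, where 4.73% of all genes were. Both induced arrays lay above both controls for 19 of the 38, against 21.4% of all genes, and below both for 3, against 22.4%. After Benjamini-Hochberg adjustment over all probe sets limma called 0 of the 38 genes, as it called 0% of all genes, and the smallest adjusted p of a member probe set was 0.391. In cultures measured in bulk, a small change in every cell and a larger change in a part of the cells cannot be told apart.

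The count of 9 depended on the processing and on every array. It was 5 without the first control array, 4 without the second, and 3 when either induced array was left out, where the shares of all genes were 5.45%, 2.38%, 6.68% (first induced array left out) and 2.87% (second induced array left out). It was 1 when the test did not let the variance follow the intensity, with 4.37% of all genes, and 3 when the probe sets of a gene were averaged, with 5.10% of all genes. Averaging also moved the median of the 38 genes to 0.0085, against -0.012 over all genes. Both induced arrays then lay above both controls for 13 of the 38, against 18.0% of all genes, and below both for 7, against 24.1%. With an array left out, groups separate more easily: the 3 genes with both induced arrays lower became 7 when either control array was left out, 11 without the first induced array and 5 without the second, where 32.8% to 39.5% of all genes were lower.

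**Figure D1:**
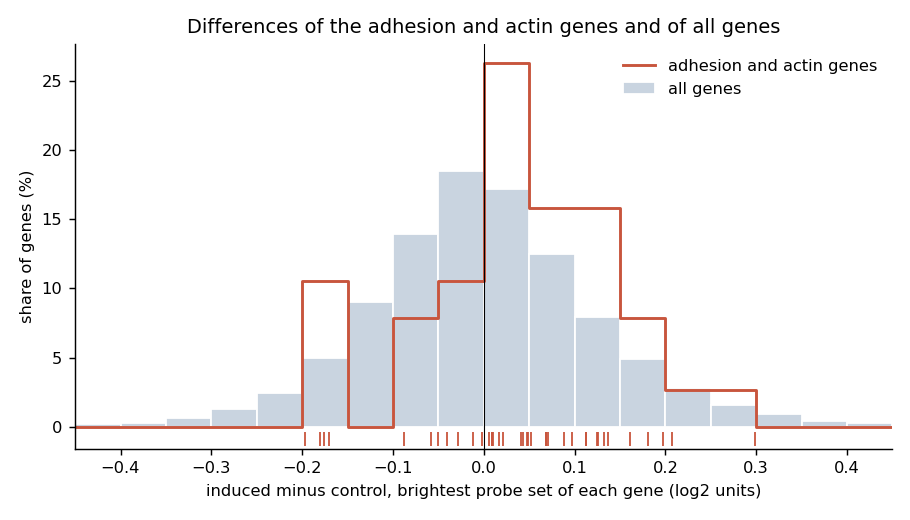
The share of genes (y axis, %) by their induced minus control difference (x axis, log2 units, steps of 0.05), with bars for all 19775 genes, a line for the 38 adhesion and actin genes and a tick for each of them. The ticks run from -0.20 to 0.30, and 27 of the 38 lie above 0.

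Probe sets with a mean under the array-wide median (6.16) are called dim here. Of the 38 genes, 36 were not dim, and all 9 higher genes and the 1 lower gene were among them. Among genes that were not dim 7.98% of all genes were higher at an unadjusted p under 0.05 and 5.63% were lower. Both induced arrays lay above both controls in 19 of these 36 genes, against 23.5% of all genes that were not dim, and below both in 2, against 25% of them. Differences over 0.1 were seen upwards in 11 of the 38 genes and downwards in 4, where 19.1% and 18.9% of all genes had them.

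The promoters of these genes were searched for motifs. Many of the genes are known SRF targets, so the frequency of an SRF motif in them is not independent of the choice by name. The RefSeq promoter table (GRCh38.p14, 250 bases before to 50 after each start) held 36 of the 41 genes, with 59 promoters. SRF binds the CArG box, a motif of 10 letters made of CC, a run of A or T, and GG. An exact box, searched on both strands, stood in 5 of the 59 promoters (8.47%), against 1.29% of all 35116 promoters. They are printed as stretches of 60 bases, 5′ to 3′ on the strand of the gene, with the box in capitals.
ACTN1 (chr14:68977703-68977762, minus strand): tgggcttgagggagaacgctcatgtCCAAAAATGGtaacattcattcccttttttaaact
CNN2 (chr19:1026494-1026553, plus strand): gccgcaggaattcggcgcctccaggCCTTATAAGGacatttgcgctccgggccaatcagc
TPM4 (chr19:16067340-16067399, plus strand): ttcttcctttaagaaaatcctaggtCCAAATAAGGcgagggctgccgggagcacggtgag
FLNA (chrX:154374694-154374753, minus strand): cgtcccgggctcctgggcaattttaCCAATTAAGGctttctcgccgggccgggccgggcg
ROCK2 (chr2:11345476-11345535, minus strand): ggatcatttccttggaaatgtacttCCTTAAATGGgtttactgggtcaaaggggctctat

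The boxes start 171 bases before the transcript start in ACTN1, 89 in CNN2, 173 in TPM4, 94 in FLNA and 73 in ROCK2. The 4 of these genes that were measured differed by -0.17 to 0.07, with a median of 0.029, and the 29 other measured genes of the table had a median of 0.051. No test was made of so few genes.

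The motif GGAATG, bound by the TEAD partners of YAP and TAZ, was also searched on both strands. It stood in 13 of the 59 promoters (22.0%), against 14.0% of all promoters, and these belonged to 12 genes. It is printed in capitals for members with a probe set at an unadjusted p under 0.05, on the strand of the gene, where CATTCC is the same motif on the other strand. CALD1 has it in 2 of its promoters.
CNN3 (chr1:94925881-94925936, minus strand): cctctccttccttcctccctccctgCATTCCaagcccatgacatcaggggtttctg
CALD1, upstream promoter (chr7:134745400-134745455, plus strand): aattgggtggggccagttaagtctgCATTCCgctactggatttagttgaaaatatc
CALD1, downstream promoter (chr7:134779415-134779470, plus strand): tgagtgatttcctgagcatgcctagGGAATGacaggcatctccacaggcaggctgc
PFN1 (chr17:4948600-4948655, minus strand): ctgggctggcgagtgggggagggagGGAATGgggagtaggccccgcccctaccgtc
MYH10 (chr17:8630898-8630953, minus strand): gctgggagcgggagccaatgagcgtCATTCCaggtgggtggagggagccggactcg

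In ACTN1 the same letters follow the CArG box printed above, starting 154 bases before the start. Of the 11 measured genes with the motif, 9 were higher and 2 lower by sign, with a median of 0.069, and of the 22 without it 14 were higher, with a median of 0.031. These counts read each gene by its brightest probe set, were chosen after seeing values and were not tested. MYH10, with the motif, was the lowest of the 11 at -0.18. The TCF motif CTTTGAT, the DNA end of canonical WNT signalling, stood in 1 of the 59 promoters (CNN2), which is 1.69% against 2.62% of all promoters.

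Among the 10 genes of the adhesion plaque 1 was higher at an unadjusted p under 0.05 (limma) and 0 were lower. Over all genes 6.48% were higher and 4.73% lower, so these counts are close to those shares. That gene was FERMT2, or kindlin-2, which binds integrin tails and helps talin to activate them. It read, on the log2 scale, 10.68 and 10.54 in control cells versus 10.77 and 10.72 in induced cells, a difference of 0.14 (SE 0.054, limma adjusted p = 0.490). The induced arrays lay above both controls, but the gap between the controls was as large as the difference, and its 2 other probe sets gave 0.021 and 0.070. VCL, which encodes vinculin and reinforces the link between talin and actin, was at 10.37 and 10.39 in control cells versus 10.47 and 10.46 in induced cells, a difference of 0.089 (SE 0.038, limma adjusted p = 0.504). Here the groups were apart by more than the gap within either. Talin itself, in TLN1, was at 6.38 and 6.57 against 6.62 and 6.75, a difference of 0.21 (SE 0.099, limma adjusted p = 0.532; not among the 9 genes higher at an unadjusted p under 0.05) only slightly larger than the gap of 0.19 between the controls. The 2 other TLN1 probe sets differed by -0.022 and, in a dim set, by 0.10, both with overlapping groups. Its paralogue TLN2 differed by 0.021.

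The other genes of the plaque differed by -0.18 to 0.13. ZYX (zyxin) was at 0.13, with -0.051 in its other probe set, the scaffold PXN (paxillin) at -0.029 and the kinase PTK2 (FAK) at -0.040. ILK, PARVA and LIMS1 encode the partners of a complex that joins integrins to actin. ILK was at 10.86 and 10.87 in control cells versus 10.97 and 10.91 in induced cells, PARVA differed by 0.0091, and LIMS1, read here by 3 dim probe sets, by -0.18 (SE 0.14).

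Of the crosslinkers, ACTN1 and ACTN4 encode the alpha-actinins of non-muscle cells, which bundle filaments in stress fibres and adhesions. ACTN1 was at 12.78 in both controls and at 12.85 in both induced arrays, a difference of 0.071 (SE 0.026, limma adjusted p = 0.482). The step was small, but it was larger than the gap within either group. The 3 other probe sets of ACTN1 gave -0.047 to 0.010. ACTN4 was at 10.37 and 10.57 in control cells versus 10.36 and 10.40 in induced cells, so its difference of -0.088 rested on the second control array and was 0.0088 without it.

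The regulators of the thin filament held 4 of the 9 higher genes, out of 9 measured, where 6.48% of all genes were higher. Their median difference was 0.11, against -0.0030 over all genes. Over their 35 probe sets the lean was smaller, with 19 higher and 16 lower by sign. The median of these sets was 0.048, against -0.014 over all probe sets. Tropomyosins run along actin filaments and decide which proteins may bind them. TPM1 was at 12.70 and 12.65 in control cells versus 12.80 and 12.87 in induced cells, a difference of 0.16 (SE 0.036, limma adjusted p = 0.472). TPM2 was at 9.98 and 10.05 against 10.15 and 10.10, a difference of 0.11 (SE 0.046, limma adjusted p = 0.497), and its 3 other probe sets gave -0.027 to 0.066. In the brightest set of both genes each induced array lay above each control.

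TPM4 stood at 9.76 and 9.70 in control cells versus 9.70 and 9.41 in induced cells, a difference of -0.17 (SE 0.094), and there only the second induced array was low. CALD1 encodes caldesmon, which binds actin and tropomyosin and holds back myosin. It was at 11.80 and 11.70 against 11.96 and 11.90, a difference of 0.18 (SE 0.045, limma adjusted p = 0.472).

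Calponins also bind actin and slow myosin, and CNN3 is a form found outside muscle. CNN3 was at 12.27 and 12.11 without induction and at 12.39 in both induced arrays, a difference of 0.20 (SE 0.052, limma adjusted p = 0.472). Its other probe set was at 10.22 and 10.21 against 10.52 and 10.46, a difference of 0.28 (SE 0.042), which had the smallest p of all member probe sets (unadjusted p = 0.00046, limma adjusted p = 0.391). Both probe sets of CNN3 thus gave the same direction with no overlap between groups.

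CNN1, the calponin of smooth muscle, was dim, at 5.67 and 5.61 in control cells versus 5.44 and 5.45 in induced cells, a difference of -0.20 (SE 0.091). CNN2 differed by 0.049. Transgelin, an actin binding protein of smooth muscle, was at 7.25 and 7.24 in control cells versus 7.40 and 7.36 in induced cells (TAGLN, 0.13, SE 0.065), and the related TAGLN2 differed by -0.012.

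The 4 contractile genes held the 1 lower gene of the 38, where 4.73% of all genes were lower. MYH10 encodes the heavy chain of non-muscle myosin IIB. It was at 10.89 and 10.94 in control cells versus 10.72 and 10.76 in induced cells, a difference of -0.18 (SE 0.040, limma adjusted p = 0.472). Its other probe set was at 8.58 and 8.46 against 8.32 and 8.08, a difference of -0.32 (SE 0.092), so both probe sets were lower with no overlap between groups. MYH9, the heavy chain of myosin IIA, was at 9.94 and 10.03 in control cells versus 10.03 and 10.08 in induced cells, a difference of 0.069 (SE 0.049), which was smaller than the gap between the controls. Whether MYH9 and MYH10 differed from each other was not tested. ACTA2 (smooth muscle actin) and MYL9 (a regulatory light chain) differed by 0.051 and 0.047, both with overlapping groups.

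Among the 6 genes of filament assembly 2 were higher at an unadjusted p under 0.05 (limma), where 6.48% of all genes were. Of their 19 probe sets 3 were higher and 3 lower at that threshold, against 4.75% and 5.27% of all probe sets. ENAH, or Mena, keeps growing filament ends free of capping protein. It was at 11.38 and 11.21 in control cells versus 11.53 and 11.65 in induced cells, a difference of 0.30 (SE 0.069, limma adjusted p = 0.472), the largest of the 38 by this choice of probe set. PFN1, or profilin, feeds actin monomers to the growing end. It was at 12.41 and 12.45 in control cells versus 12.57 and 12.49 in induced cells, a difference of 0.097 (SE 0.036, limma adjusted p = 0.482).

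VASP, a relative of ENAH, differed by 0.017 (SE 0.084). CFL1, or cofilin, which severs filaments, was at 13.89 and 13.92 in control cells versus 13.92 and 13.88 in induced cells. The formins, which nucleate straight filaments, stood at -0.058 for DIAPH1 and 0.0098 for DIAPH3. A second probe set of DIAPH1 was at 8.41 and 8.45 in control cells versus 8.28 and 8.31 in induced cells, a difference of -0.14 (SE 0.055).

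RHOB, a GTPase known to be induced quickly by stress, was at 10.12 and 10.10 in control cells versus 10.24 and 10.20 in induced cells, a difference of 0.11 (SE 0.041, limma adjusted p = 0.480). Its other probe set that was not dim went the opposite way, at 7.05 and 7.23 against 7.02 and 6.95 (-0.15, SE 0.088), with no overlap between groups, and its 3 dim sets gave -0.14 to 0.10. RHOA and RHOC, which drive contraction, differed by 0.0054 and -0.051. RAC1 and CDC42, which drive protrusion, differed by 0.043 (SE 0.028) and 0.040 (SE 0.039). The kinase ROCK1, which acts downstream of RHOA to activate myosin, was at 10.36 and 10.32 in control cells versus 10.39 and 10.54 in induced cells, a difference of 0.12 (SE 0.058), while its 4 other probe sets gave -0.19 to 0.0083. ROCK2 was at 10.37 and 10.37 against 10.37 and 10.38.

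**Figure D2:**
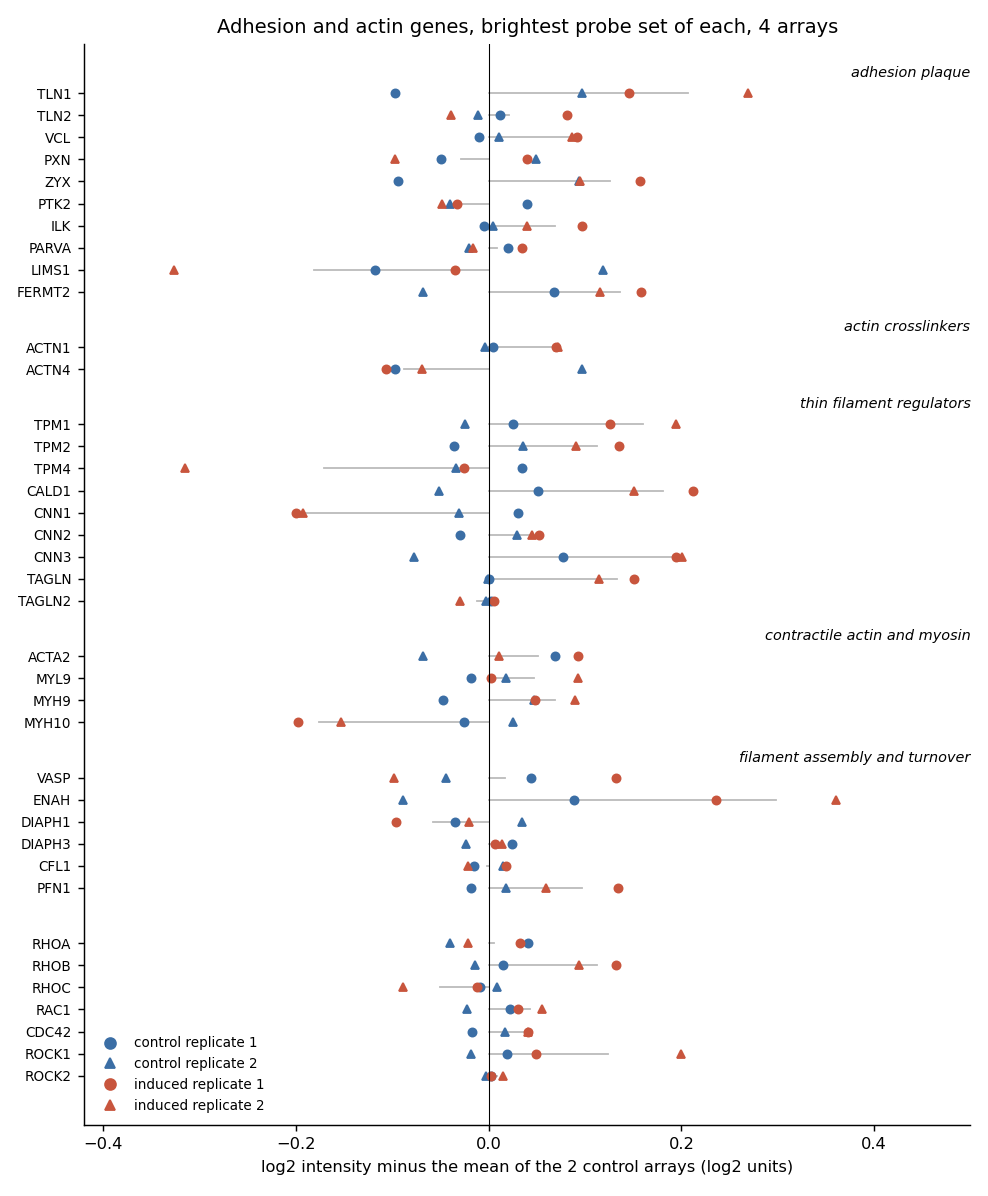
Log2 intensity minus the mean of the 2 control arrays (x axis) for the probe set with the highest mean of each of 38 genes (rows, in blocks by role, the last block without a label), with circles for replicate 1, triangles for replicate 2, blue for control, red for induced and a grey line to the mean difference. ENAH reaches furthest to the right at 0.30, 3 genes (CNN1, MYH10 and RHOC) have both red points left of both blue ones, and in 16 of the 38 genes the groups overlap.

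The 31 genes with several probe sets allow a check of each difference. Their 116 probe sets often disagreed: in 7 of the 31 genes all probe sets had the same sign, or 22.6%, against 37.7% of all 10523 genes with several probe sets. Using only probe sets at or above the median intensity, the share was 6 of 26 genes, against 44.9% of 6112. The numbers of probe sets per gene differ, so these shares are descriptions. The test of unequal differences within a gene (limma diffSplice, F test) called 0 of the 31 genes, as it called 0% of all genes, with a smallest adjusted p of 0.291. At an unadjusted p under 0.05 were 4 of the 31, against 10.3% of all genes tested, which is close to that share. This number changed when either induced array was left out, and the share of all genes in those fits is not given here.

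These 4 genes were ENAH, TPM1, RAC1 and CFL1. In ENAH the 6 probe sets ran from -0.38 to 0.30 (F test adjusted p = 0.291, limma diffSplice). The probe set with the next highest mean was at 11.22 and 11.18 in control cells versus 11.21 and 11.25 in induced cells, so it did not share the difference of 0.30. Another was at 7.24 and 7.19 against 7.46 and 7.45, a difference of 0.24 (SE 0.066), while the dim 228553_at was lower, at 5.42 and 5.56 against 5.24 and 4.98. The last departed from the other sets by -0.50 (limma diffSplice, unadjusted p = 6.3e-05, adjusted p = 0.153), the smallest adjusted p among the 116. In this test 0 of the 116 passed after adjustment, against 0.00314% of all probe sets tested, and 14 of the 116 had an unadjusted p under 0.05, against 9.36%.

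In TPM1 the 6 probe sets ran from -0.097 to 0.21 (F test adjusted p = 0.333, limma diffSplice), and 4 were higher and 2 lower. Besides 210986_s_at, the one described above, 206117_at was higher, at 9.63 and 9.58 in control cells versus 9.79 and 9.83 in induced cells (0.21, SE 0.045). The bright 210987_x_at was at 12.76 and 12.70 against 12.75 and 12.75, and 206116_s_at at 12.32 and 12.31 against 12.28 in both induced arrays. The set 238688_at was the lowest, at 8.96 and 8.95 against 8.89 and 8.82 (-0.097, SE 0.052). In each TPM1 set the 2 arrays of a group lay close together, so the sets differed from each other in the same way in both induced arrays. Many tropomyosin forms are made from this gene by alternative promoters, exons and ends, and which of them each probe set reads is not known here.

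In CALD1 the 11 probe sets ran from -0.30 to 0.30, with 4 higher and 7 lower (F test adjusted p = 0.673, limma diffSplice). The set with the highest mean, at 0.18, was joined by no other set at or above the median with a difference over 0.075. The opposite direction was clearest in 235834_at, at 6.92 in both controls and 6.70 and 6.53 after induction (-0.30, SE 0.088), and in 214880_x_at, at 7.69 and 7.64 against 7.54 and 7.49 (-0.15, SE 0.064). In 3 sets the induced arrays themselves stood apart: 201615_x_at was at 10.09 and 9.50, 215198_s_at at 7.61 and 7.18, and 231881_at at 5.44 and 4.89, each time with the second lower. With 209344_at of TPM4, at 9.51 and 8.94, these were the 4 member probe sets with a gap over 0.4 between the induced arrays (3.25%, against 3.32% of all probe sets). The spread between the CALD1 sets did not pass the F test. Gaps of this size between the induced arrays were about as frequent among members as over all probe sets.

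**Figure D3:**
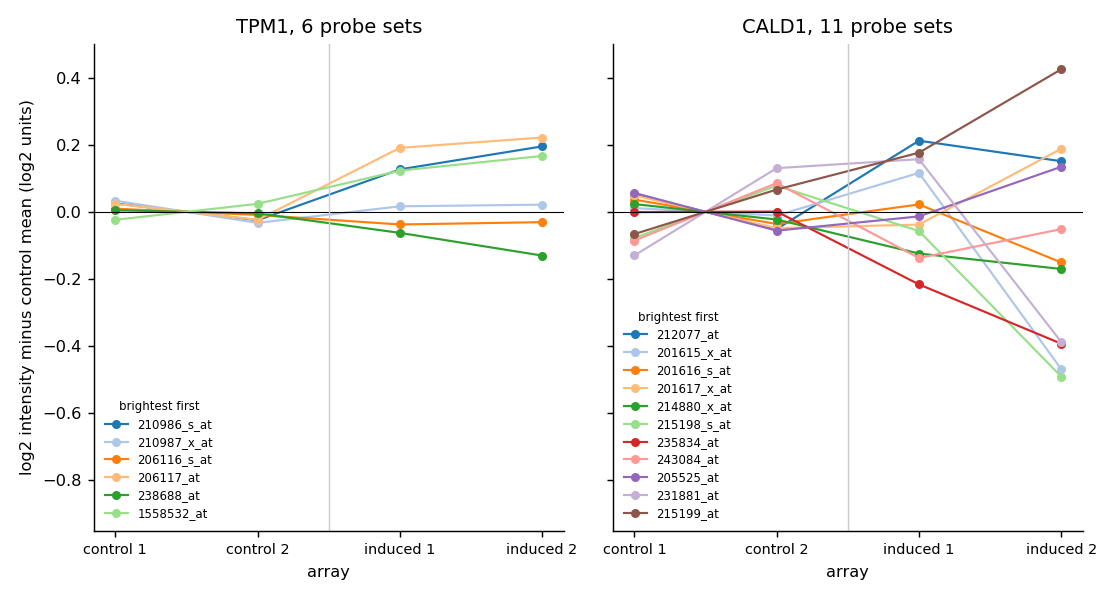
Log2 intensity minus the mean of the 2 control arrays (y axis) in each of the 4 arrays (x axis) for the 6 probe sets of TPM1 and the 11 of CALD1, where lines only join the points of a set. TPM1 sets fan out alike in both induced arrays, and 3 CALD1 sets are lower by over 0.4 in the second induced array than in the first.

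RAC1 had 4 probe sets (F test adjusted p = 0.354, limma diffSplice). The pair with the highest means was nearly level, at 13.32 and 13.28 against 13.33 and 13.35 and at 13.21 and 13.23 against 13.18 and 13.14. The others were higher: 1567458_s_at was at 11.71 and 11.60 in control cells versus 11.83 and 11.99 in induced cells (0.25, SE 0.063), and 1567457_at at 8.15 and 8.08 against 8.44 and 8.48 (0.35, SE 0.058), which was the most positive difference of the 123 probe sets. In CFL1 the pair of bright sets differed by -0.0015 and 0.018, 230870_at was at 6.30 and 6.44 against 6.12 in both induced arrays (-0.25, SE 0.089), and a dim set was at 0.26 (SE 0.11). The F test of CFL1 gave an adjusted p of 0.371 (limma diffSplice).

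Counted over probe sets in place of genes, 14 of the 123 were higher at an unadjusted p under 0.05 (limma), against 4.75% of all probe sets, and 7 were lower, against 5.27%. The 14 belonged to FERMT2, ACTN1, TPM1, TPM2, CALD1, CNN3, ENAH, PFN1, RHOB and RAC1, and the 7 to CALD1, MYH10, ENAH, DIAPH1, CFL1 and RHOC. CALD1 and ENAH stood in both. Groups did not overlap upwards in 34, against 17.9% of all, and downwards in 22, against 23.5%. Over all 123 the median difference was 0.0090, against -0.014 over all probe sets, so the lean seen with the brightest set of each gene was smaller here. Without the second control array 9 were higher and 2 lower, against 1.84% and 2.08% of all probe sets. Without the first control array 10 were higher and 3 lower, against 4.20% and 3.61%. Without the first induced array 10 were higher and 10 lower, against 5.12% and 6.25%, and without the second 10 were higher and 1 lower, against 2.33% and 2.48%. With a variance that did not follow the intensity 8 were higher, against 3.88%.

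**Figure D4:**
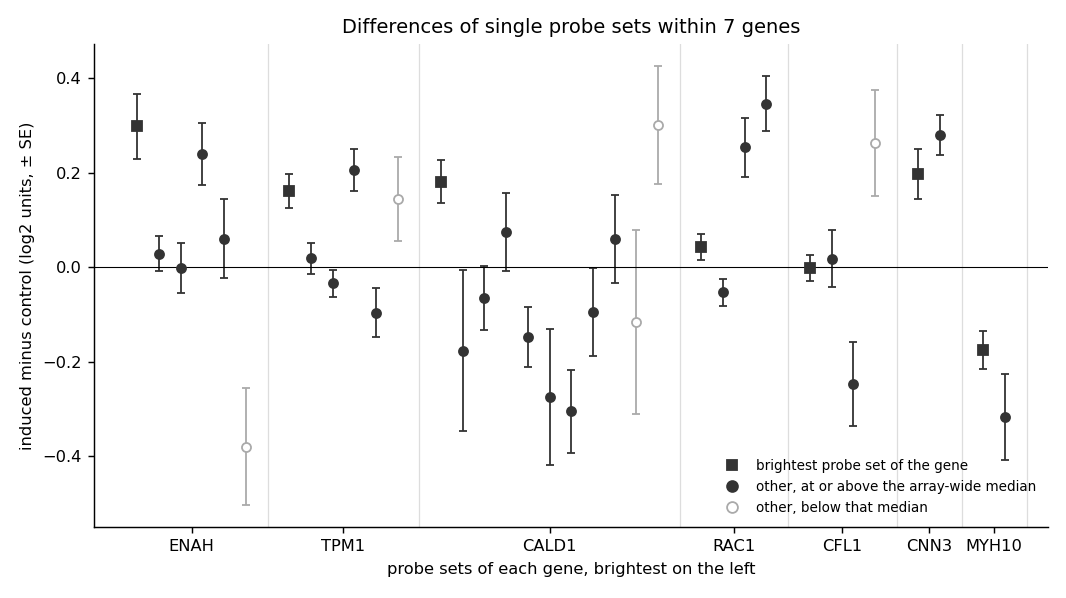
Induced minus control difference with its SE (y axis, log2 units, n = 2 arrays per group) for each probe set of 7 genes (x axis), squares marking the set with the highest mean and open points the dim sets. CNN3 and MYH10 have all their sets on the same side of 0, at 0.20 and 0.28 and at -0.18 and -0.32, while ENAH, TPM1, CALD1, RAC1 and CFL1 have sets on both sides.

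The rest of the pathway was read through 92 further genes, of which 82 were measured. Their median difference was -0.0012, with 0 called after adjustment, as over all genes. At an unadjusted p under 0.05 (limma) 10 were higher (12.2%) and 7 lower (8.54%), against 6.48% and 4.73% of all genes. Of the 82 genes 79 were not dim, and among all genes that were not dim the shares were 7.98% and 5.63%. Among the 24 adhesion genes 4 were higher and 4 lower, or 16.7% each. The scaffold NEDD9 differed by -0.16 (SE 0.052), with -0.25 to 0.12 in its 4 other probe sets, TGFB1I1 (Hic-5, a relative of paxillin) by 0.14 (SE 0.051) and PPFIA1 (liprin) by 0.12 (SE 0.045). The 3 other probe sets of PPFIA1 went the opposite way, at -0.048, -0.091 and -0.13.

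Of 29 actin regulators 3 were higher and 1 lower, or 10.3% and 3.45%, against 6.48% and 4.73% of all genes. GSN, or gelsolin, which severs and caps filaments, was at 9.92 and 10.01 in control cells versus 9.75 and 9.68 in induced cells, a difference of -0.25 (SE 0.051), and its 6 other probe sets gave -0.28 to 0.078. LIMA1 (EPLIN, which stabilises filaments) was at 0.13 (SE 0.037), with 0.18 and, in a dim set, -0.14 in its other sets, and ARPC3, a subunit of the Arp2/3 complex that branches filaments, at 0.20 (SE 0.059).

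MYL12A, a regulatory light chain of the same non-muscle myosin as MYH9 and MYH10, was at 11.34 and 11.33 in control cells versus 11.58 and 11.55 in induced cells, a difference of 0.23 (SE 0.033, limma adjusted p = 0.391). Its 3 other probe sets gave -0.24 to 0.0068. MYL12B differed by 0.18 (SE 0.053) and ANLN, which organises the contractile ring, by 0.23 (SE 0.067), with 0.0044 in its other probe set. The factor SRF was at 8.26 and 8.30 in control cells versus 8.12 and 8.21 in induced cells (-0.11, SE 0.060). Its other probe set differed by 0.031, with overlapping groups. The coactivators of SRF, MRTFA and MRTFB, differed by -0.033 and -0.042. Their other probe sets gave -0.26 to 0.0051 for MRTFA and -0.24 to 0.20 for MRTFB.

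The arrays correlated at 0.996 to 0.998 over probe sets, with array medians from 6.15 to 6.19. Of 10 markers of glioma cells and astrocytes 9 were not dim, and the astrocyte filament gene GFAP was dim. Their log2 intensities summed to 100.86 and 101.41 in control cells versus 100.59 and 100.81 in induced cells. At an unadjusted p under 0.05 (limma) 3 of the 10 were lower, FABP7 (-0.19, SE 0.034), SOX2 (-0.15, SE 0.053) and S100B (-0.12, SE 0.038), and 1 was higher, EGFR (0.14, SE 0.058), each with no overlap between groups. Over all genes 4.73% were lower and 6.48% higher at that threshold. The 6 smooth muscle markers are close to several genes here. Their log2 intensities summed to 40.99 and 41.27 in control cells versus 41.51 and 41.68 in induced cells. By sign 3 of them were higher and 3 lower, with a median difference of 0.0035. The largest difference, 0.45, was that of the dim ACTG2, and the others ran from -0.096 to 0.15. Of the 5 markers measured for each of leukocytes, endothelium and epithelium, 1, 2 and 2 lay at or above the median, with sums of 27.59 to 27.76, 26.34 to 26.70 and 25.05 to 25.49 in the controls and 27.28 to 27.80, 26.74 to 26.91 and 24.93 to 25.11 after induction. The 3′ minus 5′ difference of the ACTB control probe sets was -0.036 and 0.021 in control cells versus 0.033 and 0.11 in induced cells, and that of GAPDH was -0.067 and -0.069 versus -0.043 and -0.047. The part of these values in the differences above was not tested. The 1 probe set of WIF1 was at 2.98 and 2.90 in control cells versus 2.93 and 3.03 in induced cells, and whether it reads the expressed construct is not known here.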

How the data were processed

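Per the submitters' processing notes, the deposited log2 intensities were made by the authors with RMA from the R package affy (its version is not given in the sources used here), which subtracts background, equalises the distributions between arrays and summarises the probes of a set. A change shared by most genes is therefore not seen, and dim signals are compressed. Of 54675 rows 62 array controls were left out of the tests. The platform annotation gives 41091 probe sets 1 gene symbol, 1801 several and 11721 none, and only the first were named; 41037 matched the RefSeq gene table by identifier. Each of 19775 genes was represented by the probe set of highest mean.

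Groups came from the sample titles. The test was limma (version 3.58.1, under R 4.3.3; lmFit, then moderation by eBayes with an intensity trend, 2-sided, Benjamini-Hochberg over 54613 probe sets, threshold 0.05; 6.27 moderated degrees of freedom), and probe sets within a gene with diffSplice. Both were run on simulated data with planted shifts larger than any member difference here, so differences of the present size were not tried. With 2 arrays per group, which limit the precision, an exact permutation test cannot go below p = 0.333.

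The genes and lists were chosen with earlier results of these data known. Named genes are TPM1 and CALD1, members with a probe set at an unadjusted p under 0.05 and a mean at or above 6.16, the 2 of smallest p in each role, and up to 3 of smallest p from each list of other genes; further members are named to account for all. ACTG2, the single glioma markers, the TEAD motif's counts by direction and the probe sets with a gap over 0.4 were chosen after seeing values. Alternatives were a replicate block, eBayes without trend and robust, a filter on dim probe sets, median centring, cyclic loess, averaging probe sets and leaving out each array. Counts for 2 of the gene groups are not reported here.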

Additional observations from a re-analysis of the deposited data

Results flagged for a closer look

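The platform annotation gives 2 probe sets to LIMS1, or PINCH, together with its near copies, so they stood outside the comparison. One of them, 212687_at, shared by LIMS4, LIMS3 and LIMS1, was at 11.42 and 11.46 in control cells versus 11.62 and 11.64 in induced cells, a difference of 0.19 (SE 0.034, limma adjusted p = 0.451) that was larger than the gap within either group. The other, shared by LIMS4 and LIMS1, differed by -0.082 (SE 0.052), so the direction is not common to both, and the 3 probe sets of LIMS1 alone were dim. Which of the copies carries the signal was not tested.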

How the results depend on the processing

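The number of member genes higher at an unadjusted p under 0.05 (limma) was 9. It became 1 with eBayes without the trend, against 4.37% of all genes, and 3 with averaged probe sets, against 5.10%. The number lower was 1 and became 2 and 3 in these settings, against 3.38% and 5.25% of all genes. The counts of higher genes with an array left out are given above. Of genes with groups that do not overlap, 3 were lower, 7 with averaging and 5 to 11 when an array was left out, where 32.8% to 39.5% of all genes were lower; the 19 higher became 13 with averaging, against 18.0% of all genes, and 20 to 25 when an array was left out, against 32.9% to 38.3%. The median difference of 0.045 was 0.070 with arrays centred on their medians, where the median of all genes also rose to 0.022, 0.0085 with averaging (all genes -0.012), and 0.033 to 0.049 when an array was left out. Higher member probe sets were 14, 8 without the trend and 9 to 10 when an array was left out, and lower ones were 7 and 1 to 10. Genes with unequal probe sets at an unadjusted p under 0.05 (limma diffSplice, F test) were 4 of 31 (12.9%), against 10.3% of all genes tested. This number was 5 with cyclic loess and 5 with the filter on dim probe sets, where the shares of all genes are not given here. After adjustment limma called 0 members in every one of these settings, while over all genes robust eBayes called 2, median centring 4, and cyclic loess and averaging 9 each. With a replicate block 18.4% of member genes were higher, against 4.68% of all genes, and the adjusted count stayed 0. Same-numbered arrays correlated at 0.056 in their deviations from the group means. With 2 arrays per group the second pair mirrors the first, so this value cannot decide whether same-numbered arrays were handled together. Of 230 single values for 23 named differences, 229 kept their direction, and ACTN4, at -0.088, ranged from -0.18 to 0.0088 when an array was left out. With an array left out, its group keeps 1 array, taken to scatter as the other group does. The causes of these shifts were not tested.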
